A study of Caenorhabditis elegans with 35 samples.

Results

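Among 6 arrays of the same genotype, generation and sampling scheme, 3 carried high levels of the yolk gene vit-2 and 3 carried low levels. The arrays were those of F5 wdr-5/wdr-5 mutants of Caenorhabditis elegans, 6 of the 35 arrays of the series. The members of each side were selected on a measured value, the deposited log2 intensity of vit-2, divided at 9.5. Arrays 1, 4 and 5 lay above that value and are called high-yolk here, and arrays 2, 3 and 6 lay below it and are called low-yolk. Every comparison between high-yolk and low-yolk arrays below is therefore a description and carries no test. Tests were made only in the 29 arrays of the other groups, which took no part in the division.

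All arrays held total RNA of whole worms that the labels call L3 (a larval stage before adulthood), grown at 20 degrees. The F5 mutants were homozygous for a wdr-5 mutation whose allele the labels do not name. The labels put mutant arrays 1 to 3 on birth day 1 and arrays 4 to 6 on birth day 2, so day 1 held 1 high-yolk and 2 low-yolk arrays and day 2 held 2 high-yolk and 1 low-yolk array. The other groups were F4 mutants, and wild-type animals of F4 and F5 that descended either from wild type (+/+ from +/+) or from wdr-5 mutants (+/+ from wdr-5). Each had 6 arrays over both birth days except F5 +/+ from wdr-5, which had 5. How many worms each RNA came from is not given, and nothing states that arrays of a group came from separate cultures, so p-values below measure the spread between these RNA samples.

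Vitellogenins are yolk precursor proteins that the adult hermaphrodite intestine makes and secretes, and growing oocytes take them up through the receptor RME-2. In the hermaphrodite germline, sperm form first, during the last larval stage, and oocytes follow in the young adult. Cuticle collagens are expressed in waves tied to each moult, and col-19 belongs to the adult cuticle. WDR-5 belongs to the enzyme complexes that add methyl groups to H3K4, a lysine of histone H3.

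The division by vit-2 was wide on birth day 1 and narrower on birth day 2. On the brighter of its 2 probe sets, vit-2 stood at 10.77 log2 on high-yolk array 1 and at 8.59 and 7.22 on low-yolk arrays 2 and 3 of the same day. On birth day 2 it stood at 10.08 and 10.72 on high-yolk arrays 4 and 5 and at 8.57 on low-yolk array 6. The member just above the limit was array 4 and the one just below it was array 2. The dimmer probe set gave 9.95, 7.70, 6.32, 8.20, 9.06 and 6.61 on arrays 1 to 6, so every high-yolk array was above every low-yolk array on it too, but a limit of 9.5 on that probe set would have left only array 1 above. The 6 F5 mutant arrays covered most of the range of the series, whose other 29 arrays ran from 5.55 to 11.04. On the brighter probe set, F5 +/+ from +/+ read 5.55 to 7.22 on day 1 and 6.24 to 8.41 on day 2. Low-yolk arrays 2 and 6 were above that range of their day and array 3 was at its upper end. Low-yolk therefore means low beside the high-yolk arrays, not beside wild type.

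**Figure D1:**
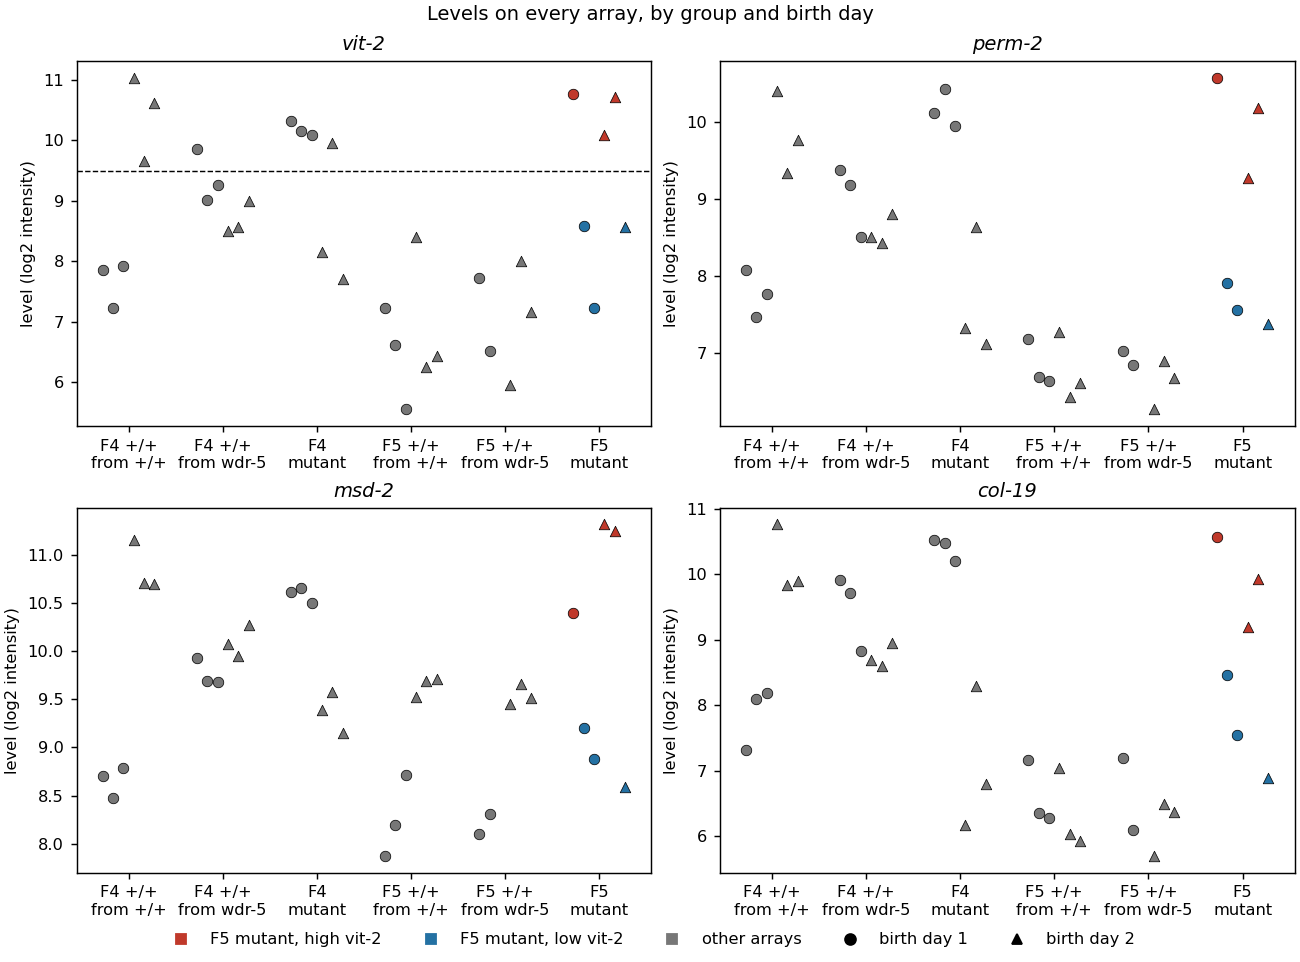
Levels of vit-2 (yolk), perm-2 (eggshell), msd-2 (sperm) and col-19 (adult cuticle) on all 35 arrays, in log2 intensity, by group, with circles for birth day 1 and triangles for birth day 2. Red marks the 3 high-yolk and blue the 3 low-yolk F5 mutant arrays, and the dashed line in the vit-2 panel is the limit of 9.5. In all 4 panels the high-yolk arrays lie above the low-yolk arrays of the same day, as the division fixes for vit-2.

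The label L3 sits beside markers of later stages. The adult collagen col-19 stood at 10.57, 9.20 and 9.93 on high-yolk arrays 1, 4 and 5, and at 8.46, 7.55 and 6.89 on low-yolk arrays 2, 3 and 6. The 25th percentile of the same 6 arrays lay between 3.87 and 4.55, so both kinds of array held col-19 well above the dim end. Markers of males differed in level. Pkd-2 read 3.39 to 4.53, and 5 of 13 measured were below that percentile on all 6 arrays. Her-1, at 5.37 to 6.27, and mab-3, at 4.65 to 5.07, were not below it on any of the 6. The stage of the worms behind an array was not measured apart from these transcripts. The wdr-5.1 transcript was low on all 6 arrays, at 4.54, 4.32, 4.68, 5.17, 5.00 and 4.82 on arrays 1 to 6, against 8.30 to 8.74 in F5 +/+ from +/+.

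The deposited arrays were spread differently on each birth day (5th percentile 3.04 to 3.23 on day 1 and 4.12 to 4.21 on day 2), so arrays were compared within a day. Array medians were 5.41 to 5.50 over the F5 mutants. Within birth day 1 the low-yolk arrays correlated with each other at r = 0.996 across probe sets and with array 1 at 0.983. Within birth day 2 the high-yolk arrays correlated with each other at 0.995 and with array 6 at 0.979 and 0.973. These correlations are across probe sets that share an array and include those that set the division.

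A probe set was counted where the high-yolk and low-yolk arrays of each birth day did not overlap, in the same direction on both days, and the fitted difference with birth day as a covariate was at least 1 log2, which is 2-fold. That difference is the mean of the 2 within-day differences. Of 20806 probe sets, each of which stands for a transcript, 515 were higher in high-yolk arrays (2.48%) and 66 were lower (0.317%). In genes these were 487 higher and 59 lower of 17236 with a probe set of their own. The median difference over all genes was -0.02 log2, and its 5th and 95th percentiles were -0.49 and 0.65. Without the limit on size, 18.4% of probe sets were higher with no overlap on either day and 26.1% were lower, so small differences ran more often down than up and large ones mostly up. Just inside the limit lay C16C8.18 at 1.0017 and exh-1 at -1.0072, and just outside lay K02F6.2 at 0.9998 and pgp-1 at -0.9995. Of the 487 higher genes, 291 differed by at least 1 log2 on both days, and 19 were under the 25th percentile of at least 1 of the 6 arrays. Without array 1 the count of lower probe sets was 113. Without array 1 only birth day 2 gives a difference, and without array 6 only birth day 1, so the within-day values below are also the values without those arrays.

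**Figure D2:**
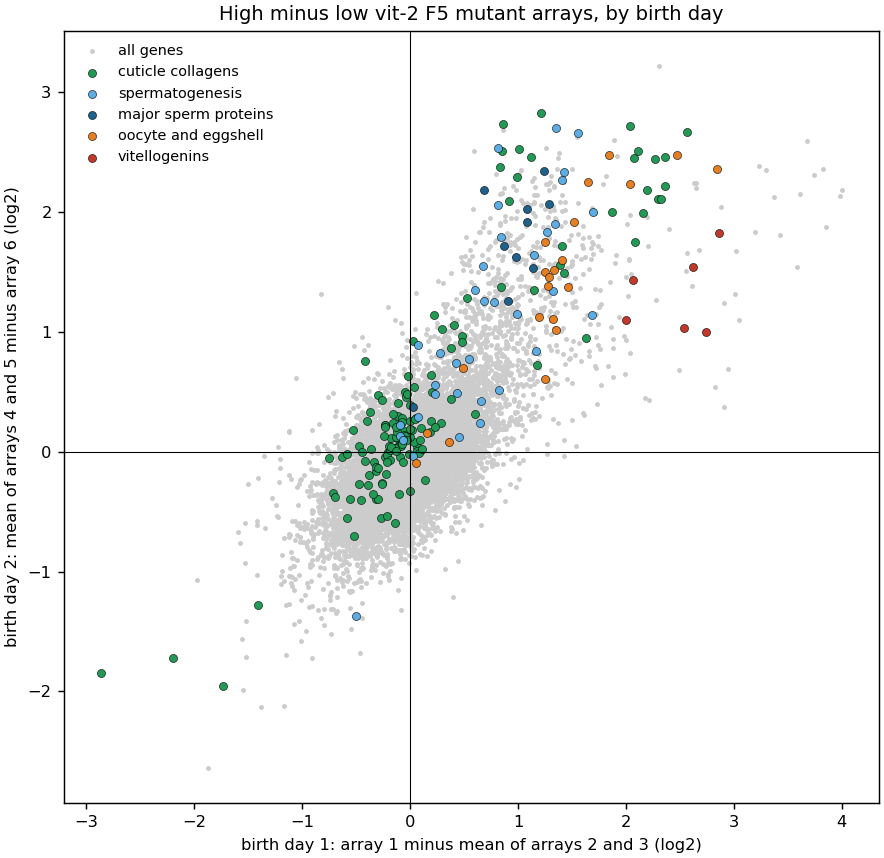
High minus low difference of each gene (log2) on birth day 1, horizontal, against birth day 2, vertical, where no array enters both. Grey points are all genes and colours are gene lists. Vitellogenins lie further from 0 on day 1, major sperm proteins on day 2, and 4 cuticle collagens lie far below 0 on both days.

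The differences of the 2 days, which share no array, correlated at r = 0.685 across 20806 probe sets, which are not independent of one another.

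All 6 vitellogenins were higher in high-yolk arrays, with a median difference of 1.83 log2 against -0.02 for all genes. They belong to the measure that made the division, and nothing is read from their count. Vit-6, which encodes a yolk precursor separate from that of vit-2, read 11.48, 9.6 and 8.10 on arrays 1, 2 and 3, and 10.87, 11.59 and 9.69 on arrays 4, 5 and 6. Its high-yolk arrays were above its low-yolk arrays on both days, by 2.62 on day 1 and 1.54 on day 2. Vit-5 read 11.63, 9.51 and 8.27 on day 1 and 10.38, 11.84 and 10.11 on day 2. On day 2 its array 4 was only a little above low-yolk array 6, although array 5 was far above it. The same was seen in vit-3, at 10.83 on array 4 and 10.52 on array 6, and in vit-1, at 8.4 and 8.0. Vit-4 had 10.80 on array 4 and 10.05 on array 6. The median of the family was 2.58 on day 1 and 1.27 on day 2. Among 15 regulators of vitellogenin expression, none was counted in either direction, beside 2.48% of all probe sets counted higher and 0.317% lower. Without the size limit, 7 of the 15 were lower with no overlap and 2 higher, beside 26.1% and 18.4% of all probe sets. The 4 regulators with the largest differences were lrp-1 (-0.41), sma-3 (-0.37), dbl-1 (-0.30) and ceh-60 (0.27).

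Genes of oocyte maturation, yolk uptake and the eggshell were higher with the yolk genes. Of 21 measured, 16 were counted higher and none lower, with a median of 1.38 log2, where 2.48% of all probe sets were counted higher. Perm-2, an eggshell gene, read 10.58, 7.91 and 7.55 on arrays 1, 2 and 3 and 9.28, 10.19 and 7.38 on arrays 4, 5 and 6. The groups did not overlap on any day, and the difference was 2.60. Perm-4, also an eggshell gene, read 10.45, 8.10 and 7.86 on day 1 and 9.98, 10.61 and 7.82 on day 2, a difference of 2.47 on both days. Puf-5, an RNA-binding protein of oocytes, differed by 2.16 and cpg-3, a proteoglycan of the egg, by 2.14. In a whole-worm RNA sample, fewer cells of a type and less RNA per cell cannot be told apart.

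The yolk receptor gene rme-2, named here as an oocyte marker, read 9.28, 7.83 and 8.22 on day 1 and 9.62, 10.23 and 8.42 on day 2. Its difference of 1.38 was the median of the list, and smaller than those of perm-2, perm-4 and cpg-3. The oocyte maturation gene oma-1 read 9.16, 7.77 and 7.99 on day 1 and 9.06, 9.55 and 7.93 on day 2, and differed by 1.33. Members with almost no difference were cpg-9 at -0.02 and mbk-2, a kinase of the egg-to-embryo transition, at 0.16, both chosen after their values were seen.

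RNAs that the oocyte stores for the embryo formed a split list. Of 21 measured, 9 were counted higher and none lower, with a median of 0.80, beside 2.48% of all probe sets counted higher. Those counted were RNA-binding proteins and their partners, such as mex-6 (1.86), nos-2 (1.73), pos-1 (1.72) and mex-5 (1.54). Pos-1, a zinc finger protein of early cell fates, read 10.13, 8.14 and 8.81 on day 1 and 9.94, 10.61 and 8.48 on day 2. Of 19 measured genes of the zygote's own transcription, none was counted higher, and the median was -0.003. Only sdz-24 (-1.23) was counted lower, where 0.317% of all probe sets were, and 7 of the 19 were under the 25th percentile on all 6 arrays.

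Sperm genes were higher too, with a different split between the days. Of 10 major sperm proteins with a probe set of their own, out of 35 listed, 9 were counted higher and the median was 1.38. Of 36 spermatogenesis genes, 17 were counted higher and none lower, with a median of 0.98. Of all probe sets, 2.48% were counted higher. Msd-2, which encodes a protein with a major sperm protein domain, read 10.39, 9.20 and 8.88 on arrays 1, 2 and 3 and 11.32, 11.25 and 8.59 on arrays 4, 5 and 6. Low-yolk array 6 was the lowest of its day by over 2 log2, while the low-yolk arrays of day 1 were closer to array 1. Ssp-34, of a sperm-specific family, read 9.15, 7.55 and 7.64 on day 1 and 9.13, 9.39 and 6.6 on day 2, a difference of 2.11. The medians of the major sperm proteins were 1.03 on day 1 and 1.82 on day 2, the reverse order of the vitellogenins. Ssp-10 (1.88) and spe-11 (1.84), a sperm-supplied factor the embryo needs, were the next in size. The remaining major sperm protein, msp-32, chosen after its value was seen, stood at 4.29 to 5.08, near the dim end, and differed by 0.20.

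Low-yolk array 6 was set apart from the other low-yolk arrays by these sperm genes. The mean of the major sperm proteins on arrays 1, 2 and 3 was 1.73, 0.82 and 0.79 log2 above that of F5 +/+ from +/+ of the same day. On arrays 4 and 5 it was 1.20 and 1.25 above, and on array 6 it lay below, at -0.48. The sperm phosphatase gene gsp-4 read 6.78 on array 6, against 7.64 to 7.93 in F5 +/+ from +/+ of that day and 9.14 and 9.48 on arrays 4 and 5. On the other side, fog-3, which directs germ cells to sperm fate, was at its highest on array 6, at 9.21, with 8.01 and 7.68 on arrays 4 and 5 and 7.98 to 8.15 in F5 +/+ from +/+. On day 1 it read 7.99 on array 1 and 8.48 and 8.51 on arrays 2 and 3, so it was lower in high-yolk arrays on both days, by 0.94, just short of the limit. Its partner fog-1 differed by -0.63 and fem-3, also of that pathway, by 0.57.

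**Figure D3:**
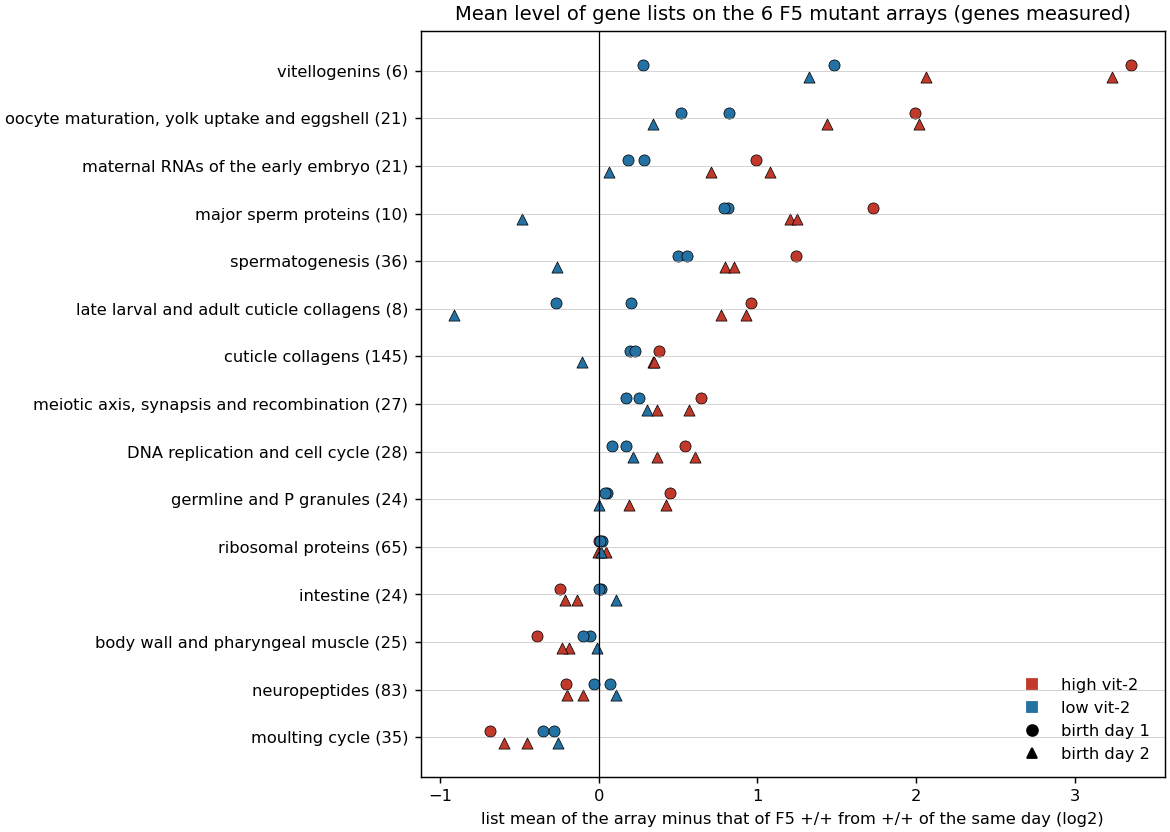
Mean level of 15 gene lists on each F5 mutant array minus the mean of the same genes in F5 +/+ from +/+ of the same birth day (log2), with the number of genes in brackets. Red marks high-yolk and blue low-yolk arrays, circles day 1 and triangles day 2. Major sperm proteins and late cuticle collagens of array 6 lie below 0, at -0.48 and -0.91, while its vitellogenin mean lies above 0, at 1.33.

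Other germline lists had smaller medians. Their counts of 1 or none stand beside 2.48% of all probe sets counted higher, so nothing is read from those counts. Of 27 genes of the meiotic axis, synapsis and recombination, 1 was counted higher, and the median was 0.28. That gene, lab-1, which protects chromosome cohesion in meiosis, read 7.34, 5.60 and 5.57 on day 1 and 7.17, 7.44 and 5.95 on day 2. Of 24 germline and P granule genes, only the RNA helicase gene cgh-1 was counted (1.07, median of the list 0.36). Without array 6, whose 7.52 was the lowest cgh-1 value of the 6, its difference was 0.51. Next in size were the P granule helicase gene glh-2 (0.69), daz-1 (0.69) and deps-1 (0.67), a P granule gene, each above the 95th percentile of all genes. Without the size limit, 15 of the 24 were higher with no overlap, cgh-1 among them. Smaller differences, chosen after their values were seen, were 0.23 for glh-1, at 10.21 to 10.90, and 0.37 for pgl-1, at 9.33 to 10.15. Of 28 genes of DNA replication and the cell cycle, none was counted, with a median of 0.32 and cyb-3, a mitotic and meiotic cyclin, largest at 0.97. Without that limit, 19 of these 28 were higher with no overlap, beside 18.4% of all probe sets.

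Cuticle collagens were split into members far higher and members far lower. Of 145 measured, 27 were counted higher and 4 lower, with a median of 0.04. Over all probe sets, 2.48% were counted higher and 0.317% lower. Of 8 late larval and adult collagens, 7 were counted higher, with a median of 1.57. The exception, rol-6, was lower at -0.61 and was named after its value was seen. The largest of all collagens was col-19 (2.62), followed by col-8 (2.41) and col-122 (2.38), which read 12.25, 10.65 and 9.78 on day 1 and 11.76, 12.46 and 9.39 on day 2.

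The 4 lower collagens were col-41, col-90, col-54 and col-156. Col-41 was the lowest of all genes in high-yolk arrays, at 8.81 on array 1 against 11.56 and 11.78 on arrays 2 and 3, and at 9.89 and 9.74 on arrays 4 and 5 against 11.66 on array 6. The low-yolk arrays lay near the 11.69 to 11.90 of F5 +/+ from +/+, and the high-yolk arrays far below. Col-90 read 9.6, 11.76 and 11.82 on day 1 and 10.43, 10.03 and 11.95 on day 2. Col-54 read 7.07, 8.81 and 8.81 on day 1 and 7.21, 6.94 and 9.03 on day 2. Col-156 differed least of the 4, at -1.34, and on its low-yolk arrays it was above F5 +/+ from +/+.

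Collagens of the late list also told the low-yolk arrays apart. Col-63 read 11.80, 10.31 and 11.05 on arrays 1, 2 and 3, and 11.86, 12.04 and 9.49 on arrays 4, 5 and 6, with F5 +/+ from +/+ at 10.64 to 10.77 on day 1 and at most 11.39 on day 2. Low-yolk arrays 2 and 6 were thus below wild type of their day and array 3 above it. Array 2 had more vit-2 than array 3 (8.59 and 7.22) and more col-19 (8.46 and 7.55), but less col-63, and less cpg-2, an egg proteoglycan gene, at 8.68 and 9.58. The eggshell and oocyte list followed cpg-2, with a mean 0.52 above wild type on array 2 and 0.82 on array 3, while the vitellogenin mean was 1.48 and 0.28 above. Not every member of that list did so. Puf-5 (7.43 and 7.85) and cpg-3 (7.81 and 8.66) followed cpg-2 over arrays 2 and 3. Perm-2 (7.91 and 7.55) and perm-4 (8.10 and 7.86) followed vit-2 instead. The means of the yolk and oocyte lists were therefore in opposite order on these 2 single arrays, and oocyte genes differed among themselves.

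The genes with the largest differences were mostly uncharacterised. Of the 15 highest, 9 lie on the X chromosome, 3 on IV, 2 on V and 1 on I. The first was Y62H9A.4, which read 10.23, 7.05 and 6.07 on day 1 and 8.64, 9.09 and 6.27 on day 2, a difference of 3.13. ZK813.7 (3.09), Y57G11B.5 (3.09), K07A1.6 (3.06) and stha-3 (3.03) followed. K07A1.6 was at 8.30 on array 1 and at 4.65 and 3.98 on arrays 2 and 3, the latter close to the 25th percentile of that day.

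Genes of proteins found in the uterine lumen, the ule genes, were among them. Ule-5 (2.88) read 9.71, 6.4 and 5.80 on day 1 and 7.60, 8.0 and 5.65 on day 2. Ule-3 differed by 2.81, and the other measured members of that name, ule-1 (2.08) and ule-4 (1.96), were also counted higher. The ZK813 locus gave ZK813.1 (2.86) and ZK813.3 (2.56) besides ZK813.7. The other genes of the 15 were D1054.10 (2.83), F53H4.2 (2.76), ZC373.2 (2.75) and F55B11.2 (2.62), with col-19 and perm-2. In all 15 the high-yolk arrays were above every F5 +/+ from +/+ array of their day, and in 14 the low-yolk arrays were as well, col-19 on array 6 being the exception.

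**Figure D4:**
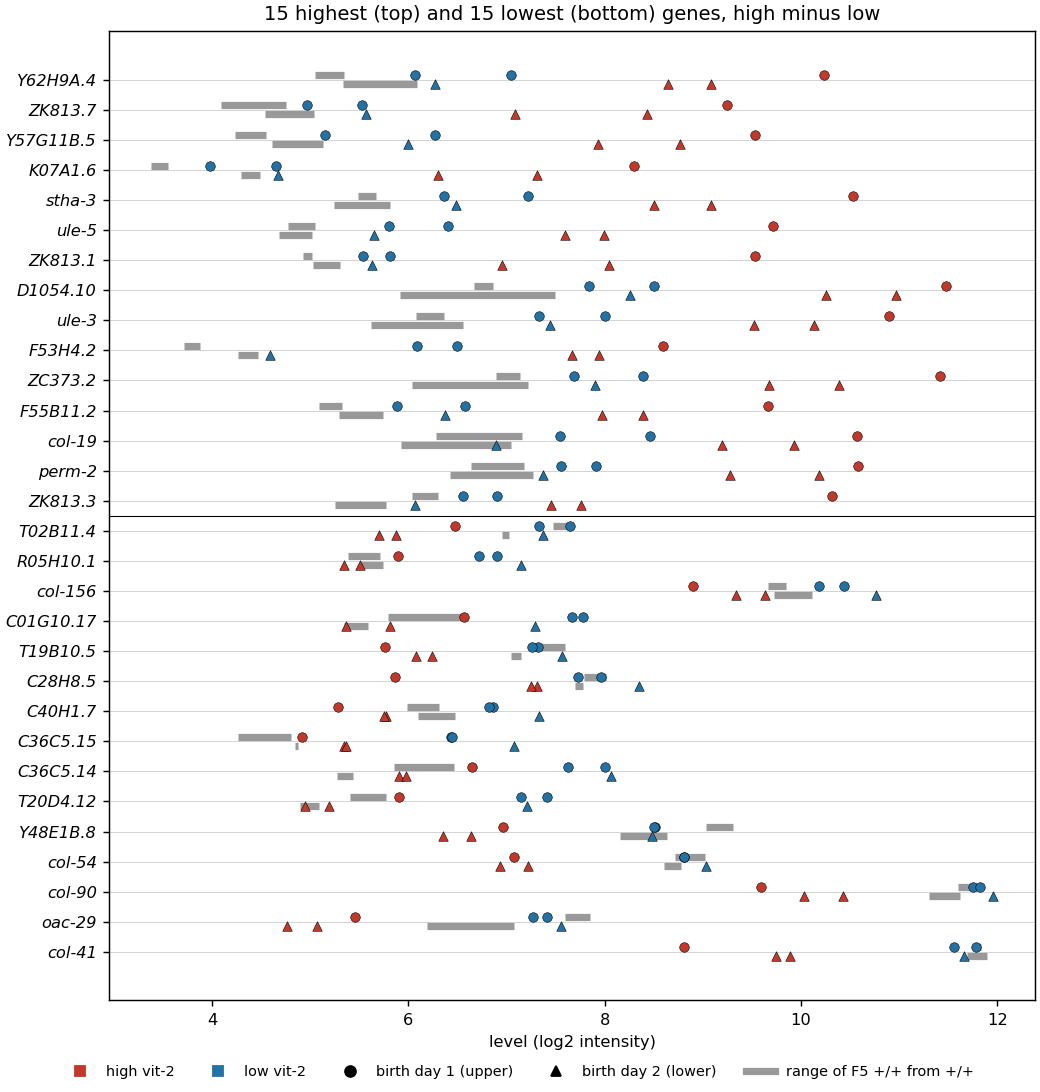
Levels (log2 intensity) of the 15 genes highest and the 15 genes lowest in high-yolk arrays by fitted difference. Points are the 6 F5 mutant arrays, red high-yolk and blue low-yolk, circles for birth day 1 and triangles for birth day 2, and grey bars give the range of F5 +/+ from +/+ of each day. For 14 of the 15 upper genes the blue points lie between the grey bars and the red points, while below the line either red or blue points leave the bars.

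Other families with a shared name also had a large share counted higher, and were chosen after their values were seen. Among them were msrp (6 of 7 genes), nspd (5 of 6), ssq (3 of 3), gln (3 of 5), nsph (3 of 5) and ttbk (4 of 7). Of all probe sets, 2.48% were counted higher. Of 241 C-type lectins and lysozymes 7 were higher and 2 lower, a share near the 2.48% of all probe sets counted higher. The largest were clec-91 (1.85), clec-87 (1.73) and clec-88 (1.67). The lower ones were clec-72 (-1.11) and clec-17 (-1.02).

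By chromosome, the share of genes counted higher was 5.39% on IV, 3.88% on I, 3.5% on II, 2.01% on III, 1.63% on X and 1.53% on V. Chromosome V held the largest share counted lower, 0.599% or 25 of 4174 genes. The vitellogenin genes lie on X except vit-6, on IV.

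Most of the 59 lower genes left the range of F5 +/+ from +/+ on one side or the other. In 39 the high-yolk arrays were below every wild-type array of their day, in 30 the low-yolk arrays were above them, and 11 showed both. Sdz-24 showed neither. Of all genes, 20.7% and 14.2% met these conditions. Oac-29, named as an O-acyltransferase homologue, was of the first kind, at 5.46, 7.41 and 7.27 on day 1 and 5.07, 4.76 and 7.55 on day 2, with wild type at 7.60 to 7.85 and 6.19 to 7.07. T20D4.12 was of the second, at 5.90, 7.41 and 7.15 on day 1 and 5.2, 4.95 and 7.20 on day 2, with wild type at 5.41 to 5.78 and 4.90 to 5.09. C36C5.14 (-1.65) and its neighbour in name C36C5.15 (-1.62) also lay above wild type on low-yolk arrays, at 7.63 to 8.06 and 6.44 to 7.07. On high-yolk arrays both genes were above every wild-type array of the same day too, by less. Of the 487 higher genes, 482 had high-yolk arrays above all wild-type arrays of their day, and 117 had low-yolk arrays above all of them. Over all genes these shares were 19.5% and 14.2%, and the 487 were counted for high values on the same high-yolk arrays.

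Other lower genes of the 15 were Y48E1B.8 (-1.77), C40H1.7 (-1.56), C28H8.5 (-1.52), T19B10.5 (-1.47), C01G10.17 (-1.42), R05H10.1 (-1.32) and T02B11.4 (-1.29). Of these, C40H1.7, C01G10.17 and R05H10.1 had low-yolk arrays above every wild-type array of their day. Of the 15 lowest, 8 lie on chromosome V. Single lower members of the lists were phat-4 (-1.07), of the moulting list, mtl-1 (-1.06), a metallothionein gene, hsp-16.41 (-1.05), a small heat shock gene, and ugt-63 (-1.08).

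Somatic lists were slightly lower as a whole, mostly under the size limit. Of all probe sets, 0.317% were counted lower and, without the size limit, 26.1% were lower with no overlap and 18.4% higher. Of 25 muscle genes none was counted, and the median was -0.28, with 16 lower and none higher with no overlap. Of 36 respiratory chain genes none was counted, with a median of -0.21, and 26 were lower with no overlap, beside 26.1% of all probe sets. Of 83 neuropeptide genes none was counted, with a median of -0.30, and of 24 intestinal genes 1 was lower, with a median of -0.25. With no overlap, 46 neuropeptide genes were lower and 8 higher, and 16 intestinal genes were lower and 1 higher. The intestinal regulator elt-2 read 7.24, 7.35 and 7.47 on day 1 and 6.48, 6.58 and 6.79 on day 2, slightly lower on high-yolk arrays of both days. Of 35 moulting genes 1 was lower and the median was -0.29, with mlt-10 at 0.12 and noah-1 at -0.46. With no overlap, 21 moulting genes were lower and 1 higher. The 65 ribosomal protein genes were level, with a median of -0.02 and none counted, although rpl-42 reached 0.93.

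The remaining lists held few counted genes or none. None was counted among 26 neuronal genes (median -0.17), 25 insulin-like peptides (-0.09), 25 histones (-0.16), 11 heterochronic genes (-0.12), 19 genes of the somatic gonad, vulva and egg laying (-0.07), 13 male markers (0.03), 29 small RNA genes (0.08), 34 genes of fatty acid desaturation, elongation and binding (-0.20) and 15 of germline sex determination (0.03). Of 18 heat shock and chaperone genes 1 was lower (0.03), and of 175 detoxification genes 1 was lower (-0.11). Of all probe sets, 2.48% were counted higher and 0.317% lower. At those shares a short list would hold few counted genes or none, so nothing is read from these counts.

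Of all probe sets, 2.48% were counted higher and 0.317% lower. Of 18 measured genes of H3K4 methylation none was counted, which is not read as a result, and the median was 0.10. The largest was the paralogue wdr-5.3, which read 7.72, 6.63 and 6.51 on day 1 and 7.43, 8.01 and 7.16 on day 2, a difference of 0.86 with no overlap on either day. The other paralogue, wdr-5.2, stayed between 3.94 and 4.77 and differed by 0.07. For 18 genes that separated F4 mutants from wild type in earlier results of these data, the median high minus low difference was -0.07. Of these, dod-3 was counted higher (1.34), and C36C5.14 and C50F7.5 (-1.23) lower, beside 2.48% and 0.317% of all probe sets. Without the size limit, 3 were higher and 6 lower with no overlap, beside 18.4% and 26.1% of all probe sets. The lysozyme gene lys-10 read 7.51, 7.02 and 7.24 on day 1 and 7.09, 7.11 and 7.75 on day 2, against 3.60 to 4.38 in F5 +/+ from +/+, and asp-12 read 6.97 to 7.5 against 7.75 to 8.4.

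In the 29 arrays outside the division, few genes followed vit-2 once the mean of each group and birth day was removed. The question was which genes vary with yolk among arrays of the same group and day. The slope of each probe set on log2 vit-2, fitted with limma over 10 group and day means, was positive at an adjusted p under 0.05 for 27 of 20804 probe sets (0.13%) and negative for none. At an unadjusted p under 0.05 there were 1691, of which 731 were negative. Of the 27, 25 were among the 513 higher probe sets with a slope, which is 92.6% of the calls and 4.87% of the higher probe sets. The count was lower without arrays of birth day 2, at 4 without array number 4 of every group, 5 without number 5 and 13 without number 6. Without the F4 mutants there were 8. The 27 calls held 24 distinct sets of values and 22 genes.

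The genes most like vit-2 in these arrays, by smallest p over 29 arrays, were other yolk genes, an eggshell gene and collagens. Vit-6 rose by 0.87 ± 0.05 log2 (SE) per log2 of vit-2 (limma, adjusted p = 1.9e-12). Vit-5 rose by 1.31 ± 0.11 (adjusted p = 5.97e-08), vit-4 by 1.14 ± 0.11 (7e-07), vit-3 by 1.15 ± 0.14 (4e-05) and vit-1 by 0.56 ± 0.08 (0.000494). The slope of vit-1 was thus lower than that of the others, as its difference between high-yolk and low-yolk arrays was the smallest of the 6. Perm-2 had a slope of 0.45 ± 0.06 (adjusted p = 0.000322). The collagens were col-140 (0.54 ± 0.09, adjusted p = 0.00279), col-122 (0.49 ± 0.08, adjusted p = 0.00279), col-20 (0.42 ± 0.07, adjusted p = 0.00344) and col-19 (0.57 ± 0.09, adjusted p = 0.00344).

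The other genes called, named after their values were seen where no rule took them, were perm-4, col-181, col-184, col-106, clec-87, clec-88, D1054.10, pos-1, cpg-2, cpg-3 and cpg-1 on its second probe set, with sip-1 and otub-3 as those outside the 515. Sip-1, a small heat shock gene, had a slope of 0.22 ± 0.04 (adjusted p = 0.0252) and differed by 0.43 between high-yolk and low-yolk arrays. Sperm genes were not among the calls. The slope was 0.02 ± 0.05 for msd-2 (adjusted p = 0.951) and -0.02 ± 0.06 for ssp-34 (adjusted p = 0.928), and the median was -0.02 over both the major sperm proteins and the spermatogenesis list, against 1.14 over 5 vitellogenins and 0.22 over the oocyte and eggshell list. Col-63 had -0.14 ± 0.05 (adjusted p = 0.517) and col-41 -0.10 ± 0.07 (adjusted p = 0.705). The median slope over all genes was -0.01.

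The genes of the division were also read in a labelled comparison, F4 +/+ from wdr-5 against F4 +/+ from +/+, on each birth day with 3 arrays a group. That yolk genes move in opposite directions there on the 2 days was known from earlier results, so the direction is not independent support. On birth day 1, 862 probe sets were higher (4.14%) and 768 lower (3.69%) by limma over 29 arrays. Of the 515 probe sets higher in high-yolk arrays 363 rose (70.5%, or 42.1% of all rises) and none fell, and of the 66 lower ones 22 fell and none rose. Without array number 1 in every group 101 of the 515 rose, without number 2 there were 74, and in a fit of the 6 arrays alone 63.

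On birth day 2 the same comparison went the other way. There 313 probe sets were higher (1.5%) and 320 lower (1.54%). Of the 515, 156 fell (30.3%, or 48.8% of all falls) and none rose, and of the 66, 9 rose and none fell. Without array number 4 in every group 5 of the 515 fell, and without number 6 there were 53. In 111 of the 515 the rise on day 1 and the fall on day 2 were both called. The days share no array, and the difference between them was tested as an interaction, which was positive for 6.19% of all probe sets and negative for 5.31%.

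**Figure D5:**
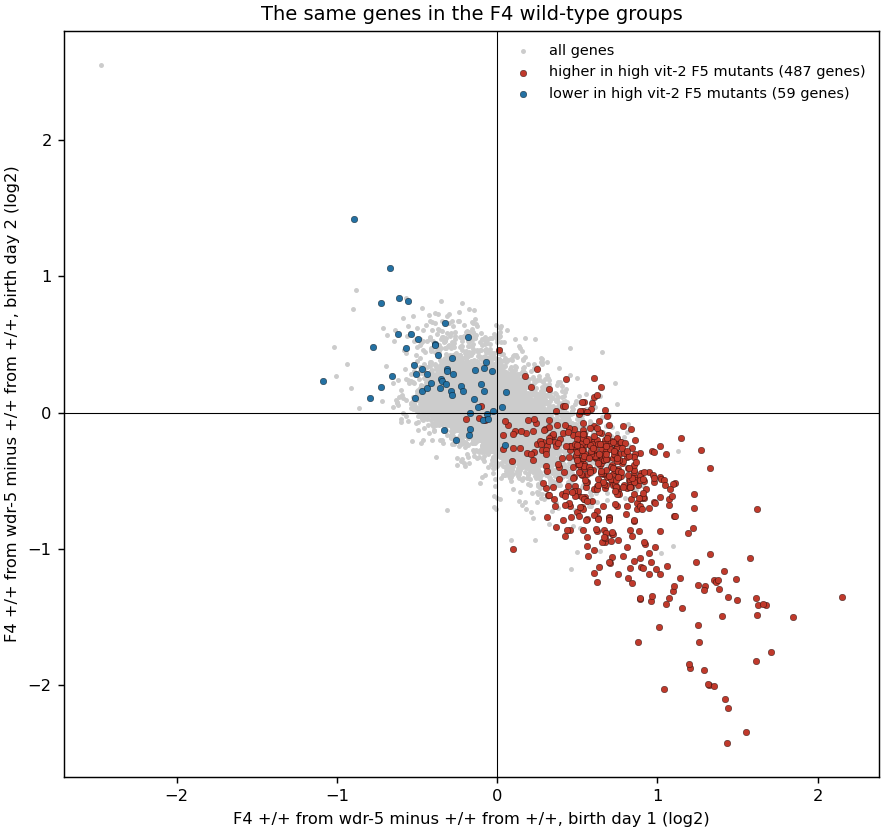
Difference of F4 +/+ from wdr-5 minus F4 +/+ from +/+ (log2) on birth day 1, horizontal, and birth day 2, vertical, for every gene. Red marks the 487 genes higher and blue the 59 genes lower in high-yolk F5 mutant arrays. The red points fill the lower right and the blue ones mostly the upper left, with median differences over probe sets of 0.67 and -0.33 on day 1 and of -0.46 and 0.23 on day 2.

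Among the members, vit-2 itself did not pass. It lay at 7.23 to 7.92 in F4 +/+ from +/+ and at 9.01 to 9.86 in F4 +/+ from wdr-5 on day 1, without overlap, a difference of 1.71 ± 0.55 (SE, limma, adjusted p = 0.052). On day 2 it lay at 9.66 to 11.04 and 8.49 to 8.99, a difference of -1.75 ± 0.55 (adjusted p = 0.0818). The dimmer vit-2 probe set passed on both days, at 1.64 (adjusted p = 0.0331) and -1.76 (adjusted p = 0.0385). Of the 6 vitellogenins only vit-1 passed on day 1 (1.49 ± 0.38, adjusted p = 0.016), and none passed on day 2.

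Of the 21 oocyte and eggshell genes 8 rose on day 1 and 11 fell on day 2. Of all probe sets, 4.14% rose on day 1, and on day 2 1.54% fell and 1.5% rose. Without array number 4 in every group, the 320 falls of day 2 over all probe sets became 13, and the list counts were not recomputed. Perm-2 rose by 1.25 ± 0.30 (adjusted p = 0.0115) and fell by 1.26 (SE 0.30, adjusted p = 0.0182). Of the 10 major sperm proteins 9 rose on day 1 and 1 fell on day 2, and of the 36 spermatogenesis genes 19 rose on day 1 while 5 fell and 1 rose on day 2. Msd-2 lay at 8.48 to 8.79 and 9.68 to 9.93 in the groups on day 1, a difference of 1.11 ± 0.15 (adjusted p = 0.000148), and at most at 11.15 and from 9.95 to 10.27 on day 2, a difference of -0.76 ± 0.15 (adjusted p = 0.00568). Its groups did not overlap on either day.

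None of the late larval and adult collagens fell on day 2, where 1.54% of all probe sets fell. Rises took 4.14% of all probe sets on day 1 and 1.5% on day 2. Of 8, 4 rose on day 1, and on day 2 rol-6 rose (0.59 ± 0.12, adjusted p = 0.00573). Col-49 had 0.69 ± 0.16 on day 1 (adjusted p = 0.00789) and -0.02 ± 0.16 on day 2 (adjusted p = 0.997), and col-63 had 0.41 and 0.05. Col-19 had 1.63 ± 0.40 on day 1 (adjusted p = 0.014) and -1.41 ± 0.40 on day 2 (adjusted p = 0.0514). Of the lower genes, col-41 fell by 0.89 on day 1 (SE 0.20, adjusted p = 0.00847) and rose by 1.42 ± 0.20 on day 2 (adjusted p = 0.000664). C36C5.14 had -0.07 and -0.01, with adjusted p = 0.791 and 1, and T20D4.12 had -0.32 and 0.21, with adjusted p = 0.126 and 0.56.

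Control probe sets moved with the division in part. The spiked BioB transcript read 6.52 on array 1 against 6.66 and 6.54 on arrays 2 and 3, and 6.06 and 5.88 on arrays 4 and 5 against 6.48 on array 6, so it was lower on high-yolk arrays of both days. The 3' minus 5' difference of ubiquitin was 3.83, 4.03 and 4.21 on day 1 and 4.56, 4.91 and 4.49 on day 2, lowest on array 1 of day 1 and highest on arrays 4 and 5 of day 2. The same difference for Gapdh lay between -0.47 and -0.16. The part of these controls in the differences was not tested.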

How the data were processed

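RNA of whole worms was hybridised to 1-colour arrays with biotin label, per the labels' protocols. The authors deposited values made with RMA, per the submitters' processing notes. The deposited values are taken here as log2 intensities from their range, since the sources used here do not give the base. The number of arrays limits the precision. Members and gene lists were chosen with earlier results of these data known, and no high against low test was made for that reason. Transcript accessions named 15504 of 20806 probe sets and symbols 4660 more, 510 kept the deposited symbol and 132 had none. Some rows repeat the values of another, which leaves 18869 distinct ones, and 123 that several genes share named no gene. A gene was read from its probe set of highest mean.

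High minus low differences were fitted by least squares with birth day. In the other 29 arrays, slopes on vit-2 and the F4 differences were fitted with limma 3.58.1 under R 4.3.3 (lmFit, eBayes with an intensity trend, 10 group and day means, 18 and 19 residual degrees of freedom), two-sided, with p-values adjusted by Benjamini-Hochberg over all probe sets at 0.05. Both fits were tested on simulated data. Named genes were the 15 highest and 15 lowest counted, the vitellogenins and wdr-5 paralogues, up to 4 members per list by size of the difference, and the 10 smallest p of the slope, and other names are said to have been chosen later or serve as markers. Alternatives covered normalization, the size limit, the day covariate, dim probe sets, repeats, the yolk gene, the moderation, the samples, a replicate block and each array left out. No array was dropped and no sequence is shown.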

Additional observations from a re-analysis of the deposited data

Results flagged for a closer look

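The named genes were looked at in the F5 mutant group, and the vitellogenins in the other groups too. Of these 225 gene and group pairs, 4 (1.78%) had 1 array far from the rest, all in the F5 mutant group. Chance marks about 1 in 20 groups. Many of these genes were picked for a difference of 3 arrays against 3, which leaves little room for 1 far array, so the shares are not alike. The gap of the far array was 0.694 of the range for hlh-1 (array 1, at 4.13 log2), 0.645 for rpl-42 (array 6, at 4.90), 0.643 for dsc-4 (array 6, at 9.27) and 0.759 for F32D8.12 (array 1, at 8.07). These use values of both birth days, whose arrays differed in spread.

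The F4 difference between +/+ from wdr-5 and +/+ from +/+ was compared between the 2 birth days by a limma interaction term for the vitellogenins and a few of the genes named above, picked with earlier results known. Genes not picked, such as K07A1.6, oac-29 and col-122, also had an adjusted p under 0.05. Those picked that passed follow. The difference of day 1 minus that of day 2 was 2.708 log2 for vit-1, 3.462 for vit-2 and 2.567 for vit-6. It was 2.516 for perm-2, 2.180 for perm-4, 1.866 for msd-2 and 1.644 for ssp-34. It was 3.038 for col-19, 3.603 for Y62H9A.4, 3.304 for stha-3 and 2.047 for sip-1. It was negative for the genes lower on high-yolk arrays, at -2.315 for col-41 and -1.730 for col-90. For vit-3, vit-4 and vit-5 the adjusted p was 0.152, 0.0885 and 0.0815.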

How the results depend on the processing

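The counts of probe sets higher and lower in high-yolk arrays became 1090 and 624 at a limit of 1.5-fold. Leaving out 1 F5 mutant array gave 468 to 584 higher and 51 to 113 lower, and without array 1 or array 6 only 1 birth day is left to decide. Under quantile normalization, no day covariate, a dim filter and 1 probe set per gene both counts stayed within 1.5 times. For slopes on vit-2, vit-6 in its place gave 50 positive calls, 45 of them among the 515, and leaving out the F4 mutants gave 8 and 8. Leaving out a replicate number gave 4 to 34 calls, 4 to 33 of them among the 515, and no negative call in any fit. For the F4 difference on day 1, quantile normalization gave 360 lower, and the 6 arrays alone gave 84 higher, 27 lower, and 63 and 6 among the 515 and the 66. On day 2 the 6 arrays alone gave 72 higher, 141 lower and 4 of the 66. Leaving out a replicate number gave 160 to 1106 higher and 82 to 1029 lower on day 1, with 74 to 406 of the 515 and 4 to 29 of the 66. On day 2 it gave 22 to 286 higher and 13 to 382 lower, with 5 to 176 of the 515 and 4 to 9 of the 66. The cause of these shifts was not tested. Fits that left out arrays or a group had fewer arrays.

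Equal replicate numbers of the F4 wild-type groups deviated together at correlations of 0.0152, 0.1595 and 0.1691 on day 1 and 0.1815, 0.3168 and -0.143 on day 2, so the numbers were not taken to pair the samples. With the number as a replicate block, 16 of the 515 and 19 probe sets in all had a positive slope, and 928 were higher and 952 lower on day 1 and 311 and 335 on day 2. Single-gene values were recomputed for only some of the named genes. Among those, no value past its threshold and no high minus low difference changed sign. Of the recomputed single-gene tests over all settings, 50 lost an adjusted p under 0.05, 15 gained it and 430 stayed on the same side. The slope of msd-2, not called, turned from 0.02 to -0.01 under quantile normalization and without replicate 6, -0.03 without the F4 mutants and -0.09 without replicate 5. The depth of an array is not a count, and dim probe sets limit what it shows.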
